A study of Mus musculus with 6 samples.

Results

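Nephrin, the 2 Kirrel proteins Kirrel and Kirrel2, and the adaptor Cd2ap were followed in whole pancreas of 7-day-old NMRI mice. The 4 genes were taken by their symbols (Nphs1, Kirrel, Kirrel2 and Cd2ap) from count tables of 23337 symbols, and all 4 passed the filter on low counts with 13017 genes in all. They were chosen with their mutant and control levels in view, so their values in this contrast are a description and carry no test. Mutant mice had the genotype Ptf1a cre/+ together with the transgene CAG-loxP-STOP-loxP-Prox1-LacZ, from which Cre removes a stop so that Prox1 is made in cells of the Ptf1a lineage. Control mice had Ptf1a cre/+ alone, so both groups carried Cre at 1 allele of Ptf1a. There were 3 mutant and 3 control libraries. The design text calls the mutant samples single organs and the control samples pools, while the protocol for taking RNA describes each pancreas as handled singly. A control value may thus stand for 1 animal or several, and pooling and genotype cannot be told apart.

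Nephrin is a transmembrane protein of the immunoglobulin superfamily, best known from the slit diaphragm, the filter junction between the foot processes of kidney podocytes. There its extracellular part binds nephrin and Kirrel proteins of the neighbouring process, and its cytoplasmic tail recruits adaptors. Kirrel, also called Neph1, and Kirrel2, also called Neph3 or filtrin, are related adhesion proteins. CD2AP, the CD2-associated protein, is an SH3-domain scaffold that binds the tail of nephrin and connects it with actin and endocytosis. Outside the kidney, Nphs1 and Kirrel2 are known from the pancreas and from the developing nervous system, and in mouse neural tissue both have been described as targets of Ptf1a.

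In GRCm38, the assembly that mm10 denotes, Kirrel2 and Nphs1 are neighbours on chromosome 7 and are transcribed away from each other. GENCODE M21 places Kirrel2 at chr7:30447534-30457690 on the minus strand and Nphs1 at chr7:30458315-30487223 on the plus strand, with 624 bases between them. Kirrel lies at chr3:87078593-87174747 and Cd2ap at chr17:42792951-42876665, both on the minus strand. All 4 are protein-coding genes. The sequence before the Kirrel2 start is shown because Kirrel2 and Nphs1 were the members with lower levels in mutants, and because it holds the letters to which the PTF1 complex of Ptf1a, an E protein and Rbpj or Rbpjl is known to bind. These are the E-box CANNTG and the Rbpj-type box TGGGAA, searched on both strands. The 250 bases before the RefSeq start, from the GRCm38.p6 promoter table at chr7:30457516-30457765 and read 5′ to 3′ along the minus strand, are printed with both motifs in capitals.

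Kirrel2: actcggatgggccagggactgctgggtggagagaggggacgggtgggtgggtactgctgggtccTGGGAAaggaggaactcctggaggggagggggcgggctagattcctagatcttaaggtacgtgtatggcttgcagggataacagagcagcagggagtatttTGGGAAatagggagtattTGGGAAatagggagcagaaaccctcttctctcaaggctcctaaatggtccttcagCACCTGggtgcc

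In the whole window of 300 bases, which adds 50 bases after the start, TGGGAA occurred 3 times, beginning at -186, -85 and -67 from the start. The E-box CACCTG occurred 1 time, at -12, and no letters were shared between the motifs. Of 32841 promoter windows of the same length in the table, 72.3% held CANNTG, 25.6% held TGGGAA and 19.0% held both. The share with TGGGAA at least 3 times was 0.368%, and since the window is shown for these letters, nothing is read from it. GENCODE also has Kirrel2 transcripts that start further upstream: 187 bases of the window are exon of Kirrel2-203, and 45 exon and 180 intron bases belong to Kirrel2-202. The TGGGAA at -85 and at -67 and the E-box therefore lie inside the annotated gene. The window of Nphs1 held neither motif, as did 21.1% of all windows. That window lies wholly inside an exon of the transcript Nphs1-201, which starts upstream of the RefSeq start, and wholly inside an intron of Nphs1-203. The Kirrel window held neither motif, and the Cd2ap window held CAAGTG and CAGCTG but no TGGGAA. A match of letters is a description of the sequence and does not show a site, and whether the spacing between the motifs allows binding was not examined.

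CPM below is the count of a gene scaled to the library size after TMM correction (trimmed mean of M-values). Prox1, the gene expressed from the transgene and a homeobox transcription factor, was at 25.5, 31.3 and 30.9 CPM in mutants 1 to 3, and at 10.8, 7.84 and 9.13 CPM in controls 1 to 3 (log2 fold change 1.67 ± 0.15 SE, edgeR adjusted p = 0.000239). Prox1 was higher in every mutant than in any control, the direction the labels give. Total counts lay between 7729161 and 9957737 in mutants and between 7304727 and 10773223 in controls. Control 1 stood apart: it held 7110 Xist counts and no Y-linked counts. Every other library held 4 Xist counts or fewer and 1132 to 1463 Y-linked counts. These are marks of a female sample in control 1 and of male samples elsewhere, so sex was not balanced between the groups. At an edgeR adjusted p under 0.05, mutants were higher in 71 (0.545%) and lower in 197 (1.51%) of the 13017 genes tested. Scaling by library totals alone gave 190 and 130, which puts 59.4% of calls on the higher side against 26.5% with TMM and shifts the log2 fold change of the median gene to 0.17. Summed acinar markers gave 331703 to 391174 CPM in mutants and 387773 to 429692 CPM in controls. Nothing states that the libraries came from separate litters or days, so the p-values set the group difference against the spread between these samples only. The spread of a gene was estimated over both groups together, whether or not the controls were pools.

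Nphs1 had the widest gap between the groups of the 4 genes. The counts were 168, 146 and 269 reads in mutants 1 to 3 and 620, 947 and 1268 reads in controls 1 to 3. After TMM scaling these were 16.0, 16.9 and 26.9 CPM in mutants and 93.2, 105 and 122 CPM in controls. The highest mutant lay far below the lowest control. The means were 19.9 ± 6.01 CPM in mutants and 107 ± 14.4 CPM in controls (SD, n = 3 each), so that Nphs1 was 5.35-fold lower in mutants, with a log2 fold change of -2.42 ± 0.19 (SE). Mutant 3 held more Nphs1 than the other 2 mutants, and the log2 fold change was -2.70 without it. Of the 13017 genes tested, 40 had a more negative log2 fold change. In controls the CPM of Nphs1 exceeded that of 96.3% of tested genes, and in mutants that of 64.1%. Whole organs were measured, so that fewer cells that make a transcript and less of it per cell cannot be told apart.

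Kirrel2 was lower too, by a smaller factor. Its counts were 96, 74 and 65 reads in mutants 1 to 3 and 142, 164 and 173 reads in controls 1 to 3. These were 9.14, 8.59 and 6.49 CPM in mutants and 21.4, 18.1 and 16.6 CPM in controls. Again no mutant reached the lowest control. The mean was 8.07 ± 1.40 CPM in mutants and 18.7 ± 2.42 CPM in controls (SD, n = 3 each), a 2.32-fold lower level with a log2 fold change of -1.20 ± 0.17 (SE). Thus mutants lay wholly below controls in 2 of the 4 genes, where the same held for 9.86% of all genes tested. Since the genes were chosen on these levels, nothing is read from that share. Without control 1, the library with Xist counts, the log2 fold changes were -1.10 for Kirrel2 and -2.50 for Nphs1.

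Kirrel, the other nephrin-binding member, overlapped between the groups. It had 169, 134 and 123 counts in mutants 1 to 3 and 80, 123 and 134 counts in controls 1 to 3. On the CPM scale these were 16.1, 15.5 and 12.3 in mutants and 12.0, 13.6 and 12.9 in controls, so that mutant 3 lay among the controls. The means were 14.6 ± 2.06 CPM in mutants and 12.8 ± 0.781 CPM in controls (SD, n = 3 each), with a log2 fold change of 0.19 ± 0.14 (SE). With library totals alone it was 0.35, a shift of about the size that the median of all genes took.

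Cd2ap, the adaptor, had 739, 640 and 722 counts in mutants 1 to 3 and 443, 582 and 773 counts in controls 1 to 3. It was at 70.4, 74.3 and 72.1 CPM in mutants and at 66.6, 64.3 and 74.3 CPM in controls. Control 3 and mutant 2 were the highest libraries and nearly equal, and the groups overlapped. The mean was 72.2 ± 1.95 CPM in mutants and 68.4 ± 5.23 CPM in controls (SD, n = 3 each), and the log2 fold change was 0.08 ± 0.09 (SE), or 0.24 with library totals alone.

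**Figure D1:**
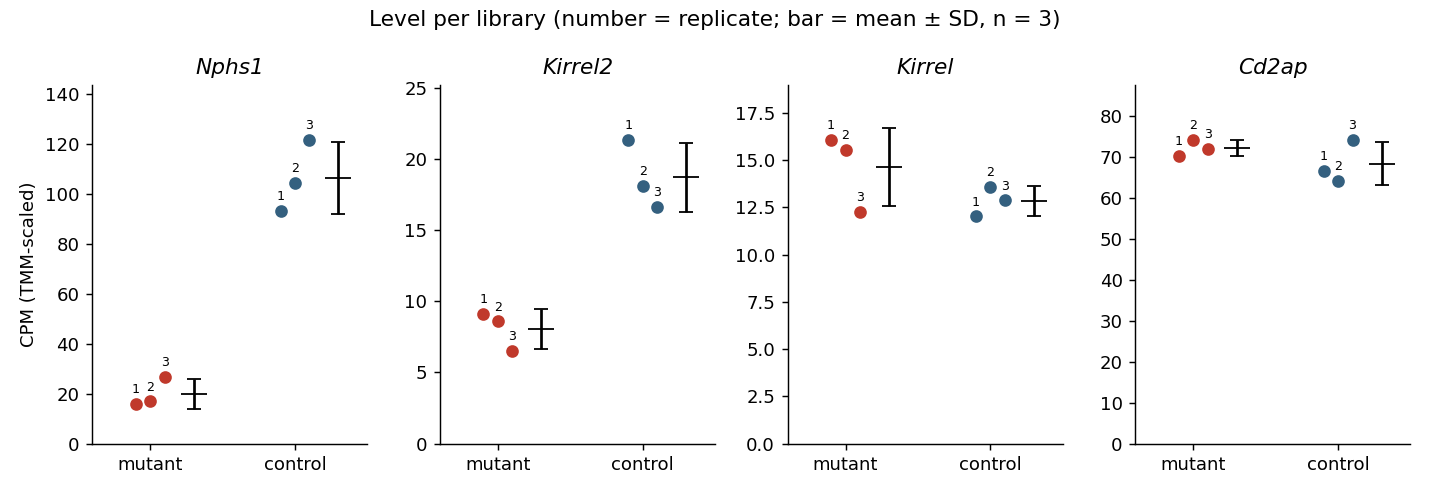
TMM-scaled CPM of Nphs1, Kirrel2, Kirrel and Cd2ap in each mutant (left) and control (right) library, with the replicate number above each point and the mean ± SD (n = 3) as a bar; each panel has its own axis from 0. Nphs1 lies at 16.0 to 26.9 CPM in mutants against 93.2 to 122 CPM in controls, Kirrel2 is also lower in every mutant, and Kirrel and Cd2ap overlap between the groups.

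Within each group Nphs1 and Kirrel2 took opposite orders across libraries. In both groups library 3 had the highest Nphs1 and the lowest Kirrel2, and library 1 the lowest Nphs1 and the highest Kirrel2. The ratio of Kirrel2 to Nphs1 counts, which does not depend on the scaling, was 0.571, 0.507 and 0.242 in mutants 1 to 3 and 0.229, 0.173 and 0.136 in controls 1 to 3. Every mutant had a higher ratio than every control, although mutant 3 was close to control 1. The mean ratio was 0.440 ± 0.175 in mutants and 0.180 ± 0.0466 in controls (SD, n = 3 each). Nphs1 counts per Cd2ap count were 0.227, 0.228 and 0.373 in mutants and 1.40, 1.63 and 1.64 in controls. The mutants lay wholly below the controls in this ratio, with mutant 3 the highest of the mutants.

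Levels were compared between genes per length of the longest basic protein-coding transcript, as CPM per kb. In controls the order was Nphs1 (23.1 ± 3.13 CPM per kb), Cd2ap (12.8 ± 0.975), Kirrel2 (5.58 ± 0.721), Kirrel3 (2.06 ± 0.490) and Kirrel (1.76 ± 0.107; SD, n = 3 each). Only the neighbours Kirrel3 and Kirrel had overlapping libraries in that order. In mutants Cd2ap came first with 13.5 ± 0.364 CPM per kb, ahead of Nphs1 with 4.33 ± 1.31. Kirrel2 followed with 2.41 ± 0.417, then Kirrel with 2.01 ± 0.283 and Kirrel3 with 1.99 ± 0.271. The last 3 genes overlapped among the mutant libraries. Within each control library Kirrel2 stood above both other Kirrel genes. Within each mutant library it stood above Kirrel, and it stood above Kirrel3 in mutants 1 and 2 but not in mutant 3.

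**Figure D2:**
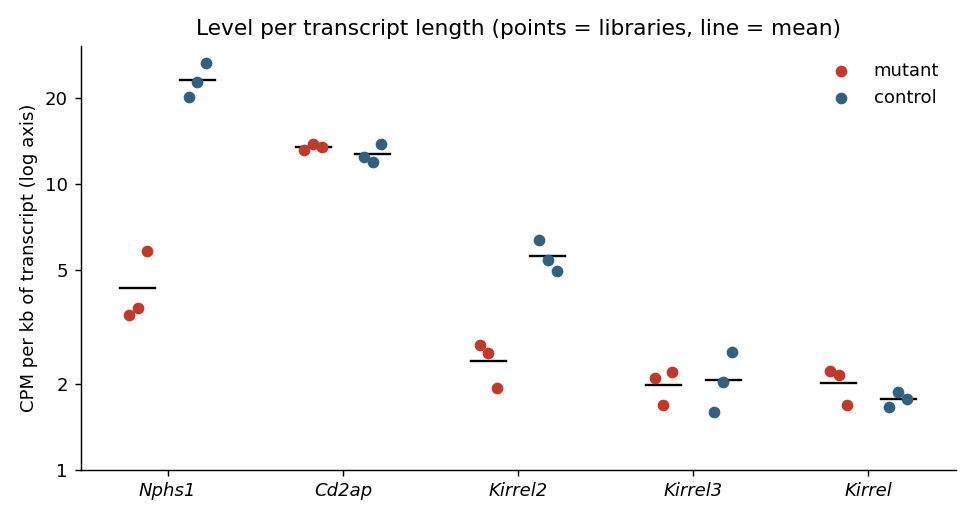
CPM per kb of transcript on a log axis for the slit diaphragm genes and Kirrel3, with 1 point per library, mutants left of controls and a line at each mean (n = 3). Nphs1 leads in controls at 23.1 CPM per kb, Cd2ap leads in mutants at 13.5 CPM per kb, and the ranges of the 3 Kirrel genes overlap in mutants.

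Ptf1a, a basic helix-loop-helix factor of acinar cells and the site of the Cre insertion, was at 14.4, 15.4 and 15.0 CPM in mutants and at 20.6, 21.1 and 17.7 CPM in controls (log2 fold change -0.40 ± 0.12 SE, edgeR adjusted p = 0.161). The groups did not overlap, and it did not pass the test. Rbpjl, the acinar partner of Ptf1a, was at 285, 275 and 305 CPM in mutants and at 349, 461 and 439 CPM in controls (-0.53 ± 0.13, edgeR adjusted p = 0.0863). It passed with DESeq2 and without control 1. Nphs1 counts per Ptf1a count were 1.11, 1.10 and 1.79 in mutants and 4.53, 4.96 and 6.89 in controls. For Kirrel2 the corresponding ratios were 0.636, 0.556 and 0.433 in mutants and 1.04, 0.859 and 0.940 in controls. Both ratios were lower in every mutant than in any control. Since Nphs1 and Kirrel2 were chosen on these levels, nothing is read from the ratios. The antisense gene Ptf1aos overlaps 40.4% of the annotated exon bases of Ptf1a, and its reads cannot be separated here. This limit holds for the ratios to Ptf1a too. A list of transcription factors was made up of Prox1, members of the PTF1 complex and factors linked to Nphs1 or Kirrel2 in other tissues. Of 9 tested, 1 rose and 0 fell by edgeR, beside 0.545% higher and 1.51% lower among all genes. The 1 that rose was Prox1 itself, the gene that the transgene carries. Counts per symbol do not separate transgene reads from those of the endogenous gene. The list had a median log2 fold change of 0.02 against 0.00 over all genes tested.

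**Figure D3:**
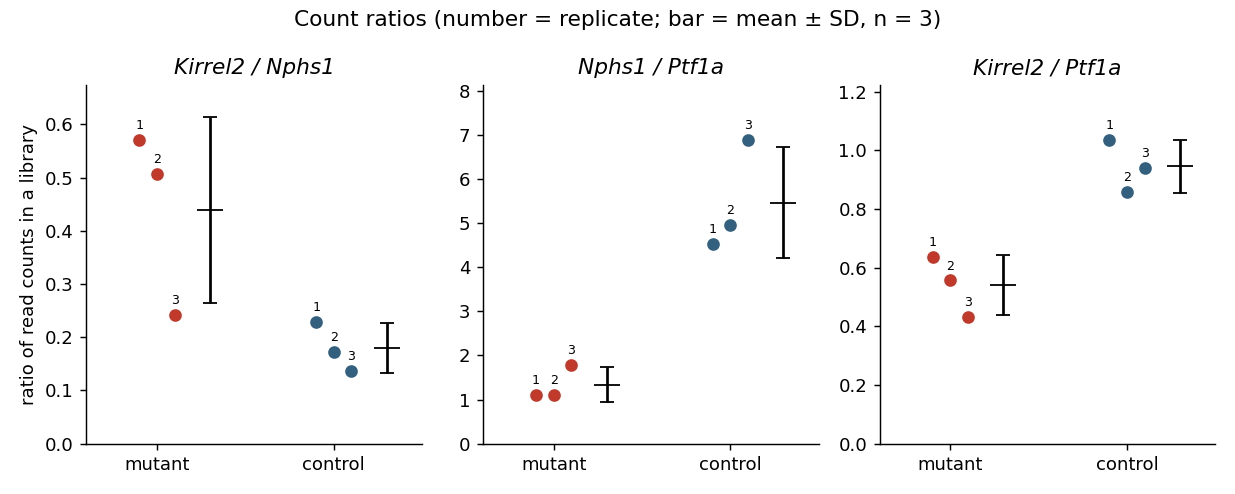
Ratios of read counts within each library, for Kirrel2 to Nphs1, Nphs1 to Ptf1a and Kirrel2 to Ptf1a, with mutants left of controls, replicate numbers and the mean ± SD (n = 3). The Kirrel2 to Nphs1 ratio is 0.242 to 0.571 in mutants against 0.136 to 0.229 in controls, and both genes are lower relative to Ptf1a in every mutant.

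The nearest annotated genes on chromosome 7 did not pass the test. Aplp1, which encodes an amyloid precursor-like protein and lies next to Kirrel2, was at 22.0, 22.6 and 24.3 CPM in mutants and at 29.0, 19.7 and 19.3 CPM in controls (log2 fold change 0.03 ± 0.16 SE, edgeR adjusted p = 0.967). For Arhgap33, a GTPase-activating protein gene beyond Nphs1, it was 0.09 ± 0.27 (edgeR adjusted p = 0.937), and for Nfkbid, a regulator of NF-kappa-B, 0.23 ± 0.50 (edgeR adjusted p = 0.912). All 3 overlapped between the groups, and their sign changed when single libraries were left out. Prodh2, a proline dehydrogenase family gene, had at most 8 counts in a library and was too low to be tested. Gm30646, Arhgap33os and Rps12-ps4 are not among the counted symbols. Rps12-ps4, a processed pseudogene inside Nphs1, overlaps 2.76% of the annotated exon bases of Nphs1. The antisense gene Nphs1as (Nphs1os in GENCODE) overlaps 9.02% of the annotated exon bases of Nphs1 and had 0, 3 and 1 counts in mutants and 0 in each control. The strand setting of the counting is not given, so reads of the pair could not be separated.

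**Figure D4:**
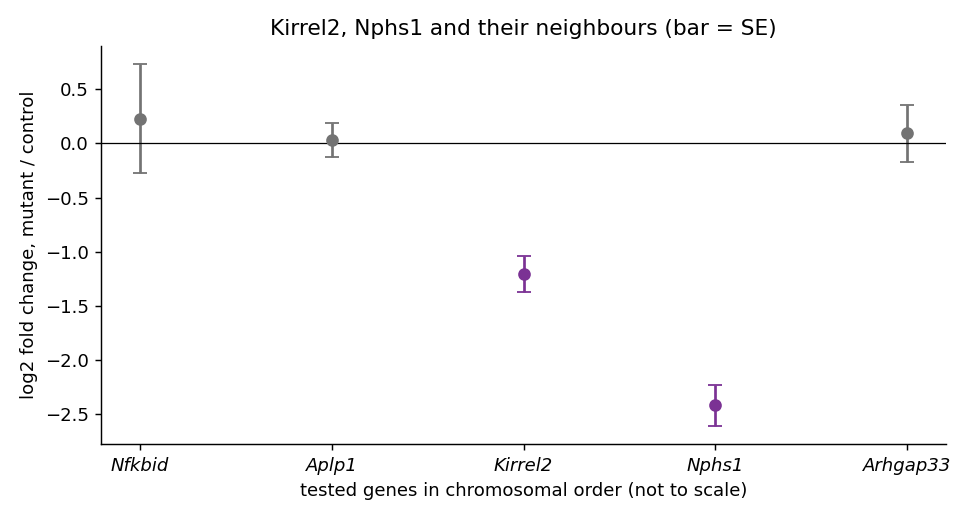
Log2 fold change, mutant over control, with its SE (n = 3 per group), for the tested genes around Kirrel2 and Nphs1 in chromosomal order, with spacing not to scale. Kirrel2 (-1.20) and Nphs1 (-2.42) lie below 0, while the error bars of Nfkbid, Aplp1 and Arhgap33 cross 0.

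Among other proteins of the slit diaphragm, 1 of 25 tested genes fell and 0 rose, beside 1.51% lower and 0.545% higher among all genes. That gene was Pard6b, a subunit of the PAR polarity complex, with 11.5, 9.51 and 12.4 CPM in mutants and 15.6, 18.9 and 18.7 CPM in controls (log2 fold change -0.67 ± 0.14 SE, edgeR adjusted p = 0.0454). In 8 of 11 alternatives it no longer passed, the highest edgeR adjusted p being 0.202. DESeq2 called 0 of the list, and its median log2 fold change was 0.02, against 0.00 over all genes. Kirrel3, the remaining Kirrel gene, was at 8.66, 6.96 and 9.08 CPM in mutants and at 6.62, 8.40 and 10.7 CPM in controls. The groups overlapped widely (-0.07 ± 0.20, edgeR adjusted p = 0.939), and the sign turned under library totals alone and without mutant 2 or control 3. Tjp1, the junction scaffold ZO-1, had a log2 fold change of -0.03 and Actn4, an actin cross-linker, had 0.02, and both were chosen after their values were seen.

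Of 25 kinases and adaptors that act on phosphorylated nephrin, 0 rose and 0 fell by edgeR, beside 0.545% higher and 1.51% lower among all genes. The median log2 fold change was 0.04. At an unadjusted p under 0.05 there were 0 higher and 1 lower, and DESeq2 called 0. The share of all genes under the unadjusted threshold was not counted. Fyn, the kinase that phosphorylates the nephrin tail, had -0.13 ± 0.11 (edgeR adjusted p = 0.722). Nck1, an adaptor that binds the phosphorylated tail, had -0.06 ± 0.11 (edgeR adjusted p = 0.888), and Nck2, its paralogue, had -0.44 ± 0.18 with mutants wholly below controls (edgeR adjusted p = 0.332). All 3 were picked with their values in view.

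Of 22 tested partners of CD2AP, 0 rose and 1 fell, beside 0.545% higher and 1.51% lower among all genes. The median log2 fold change was 0.10, against 0.00 over all genes. The gene that fell was Rab4a, a small GTPase of endosome recycling, with 6.19, 6.50 and 5.99 CPM in mutants and 9.92, 10.6 and 11.5 CPM in controls (log2 fold change -0.78 ± 0.15 SE, edgeR adjusted p = 0.0228). It no longer passed in 7 of 11 alternatives, the highest edgeR adjusted p being 0.114. Sh3kbp1, the closest relative of Cd2ap, was at 7.43, 16.2 and 7.59 CPM in mutants and at 7.22, 6.74 and 7.98 CPM in controls (0.49 ± 0.29, edgeR adjusted p = 0.547). Mutant 2 alone stood out, and the same library had the highest summed lymphocyte markers. That sum was 2.57, 63.1 and 2.60 CPM in mutants and 3.01, 14.5 and 18.8 CPM in controls, and its part in the Sh3kbp1 value was not tested.

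Of 37 tested adhesion genes of the immunoglobulin superfamily other than nephrin and the Kirrels, 0 rose and 0 fell by edgeR. Among all genes 0.545% were higher and 1.51% lower. The median log2 fold change of the list was 0.00. At an unadjusted p under 0.05 mutants were higher in 2 and lower in 3, and DESeq2 called 0. The share of all genes under the unadjusted threshold was not counted. The highest value was that of Ncam2, a neural cell adhesion molecule, with 14, 8 and 11 counts in mutants and 2, 3 and 4 counts in controls (1.67 ± 0.42, edgeR adjusted p = 0.0903). The lowest value among them was that of Ceacam1, an adhesion receptor of epithelia and immune cells, with 2.00, 2.67 and 1.20 CPM in mutants and 4.66, 5.41 and 4.42 CPM in controls (-1.31 ± 0.30, edgeR adjusted p = 0.0630). Both were picked with their values in view, and Ceacam1 passed without a filter, with a robust dispersion and without mutant 2.

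**Figure D5:**
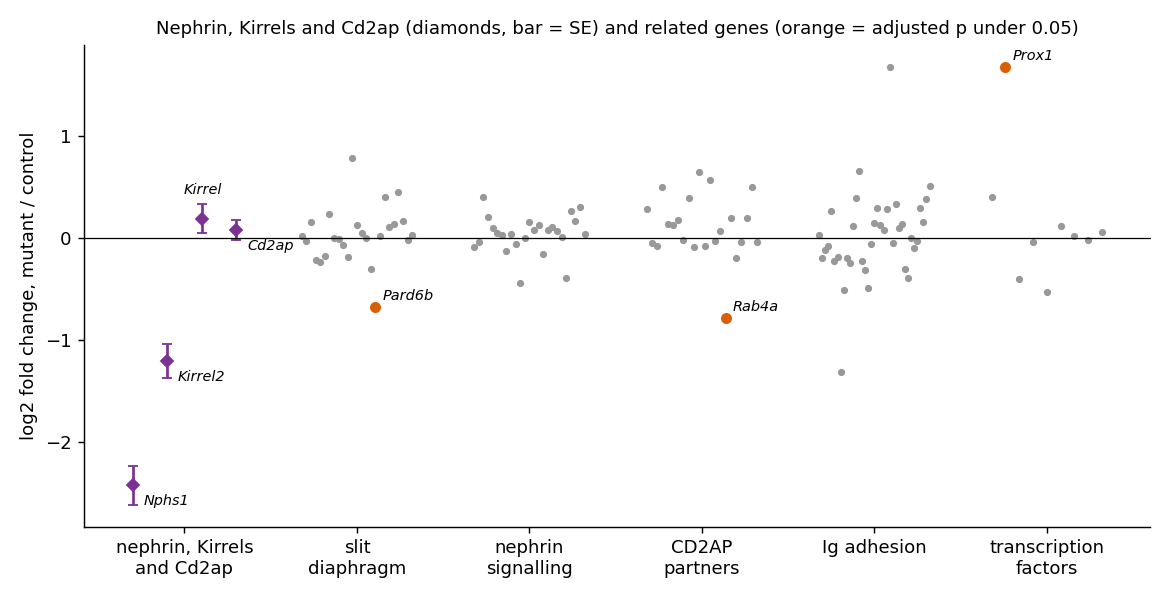
Log2 fold change, mutant over control, of Nphs1, Kirrel2, Kirrel and Cd2ap (diamonds, bar = SE, n = 3 per group) beside each tested gene of 5 related lists, with genes past an edgeR adjusted p of 0.05 in orange and named. Most genes of the lists lie near 0, and the called ones are Pard6b, Rab4a and Prox1.

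Markers of kidney tissue were looked at because the slit diaphragm is a kidney structure. Of the 13 kidney markers, 4 were at 0 in all 6 libraries, namely Pax2, Pax8, Slc34a1 and Aqp2, markers of kidney tubules and their precursors. The tubule markers Cdh16, Slc12a1, Lrp2 and Umod and the podocyte factor Lmx1b had reads in at least 1 library. Podocyte genes of the list that other cell types also express were present. Podxl, a surface sialomucin, was at 60.4 to 76.0 CPM in mutants and 48.9 to 89.0 CPM in controls. Wt1, a zinc finger factor, was at 11.3 to 15.1 CPM in mutants and 5.71 to 16.6 CPM in controls. Synpo, an actin-associated protein, was at 5.33 to 8.59 CPM in mutants and 5.09 to 7.07 CPM in controls, and Ptpro, a receptor phosphatase, at 1.80 to 2.78 CPM in mutants and 1.15 to 1.88 CPM in controls. None of the 4 passed the test by edgeR, and the part of kidney cells in the Nphs1 level was not tested. The summed level of the 13 kidney markers was 84.4 to 105 CPM in mutants and 67.2 to 124 CPM in controls. Of 6 of them that could be tested 1 fell, beside 1.51% of all genes tested. This was Umod, the uromodulin gene of the kidney tubule, with 1, 0 and 2 counts in mutants and 12, 12 and 18 counts in controls (edgeR adjusted p = 0.00813). Umod did not pass without mutant 1. Of the 13 markers, 5 are also in the lists above.

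Levels of islet and acinar markers are given beside Nphs1 and Kirrel2, since whole pancreas holds both. The summed islet markers were 3697, 3382 and 3641 CPM in mutants and 5384, 3318 and 3546 CPM in controls, so that control 1 alone stood higher. Of 17 tested islet markers 0 rose and 2 fell (Nkx2-2 and Pdx1), beside 0.545% higher and 1.51% lower among all genes. The summed acinar markers were lower in mutants 1 and 2 than in any control, and mutant 3 lay among the controls. Of 16 tested acinar markers 0 rose and 1 fell (Cel, a lipase gene), beside the same shares of all genes. In 7 of these 16 acinar markers mutants lay wholly below controls, a larger share than the 9.86% of all genes tested. At an unadjusted edgeR p under 0.05 there were 0 higher and 6 lower, and DESeq2 called 4 lower (Rbpjl, Cel, Cela3b and Pnlip). The share of all genes under that unadjusted threshold was not counted. Pdx1 did not pass when any 1 library was left out, nor did Cel without mutant 1, without control 2 or with the replicate block. The summed duct markers were 609 to 769 CPM in mutants and 793 to 869 CPM in controls. Of 12 tested, 0 were called by edgeR, beside 0.545% higher and 1.51% lower among all genes. DESeq2 called 1 higher and 2 lower, these being Cldn4, Krt19 and Spp1. At an unadjusted edgeR p under 0.05 there were 3 higher and 5 lower, so the duct markers did not all move the same way. The part of these cell types in the Nphs1 and Kirrel2 levels was not tested. The sums of nerve and glia markers were 20.6 to 29.2 CPM in mutants and 19.3 to 21.8 CPM in controls, those of fibroblast markers 3622 to 5026 CPM in mutants and 3347 to 5397 CPM in controls, and those of endothelial markers 265 to 285 CPM in mutants and 260 to 281 CPM in controls.

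The genes most like each member were ranked by Pearson's r of log2 CPM over the 6 libraries among 12937 genes with a mean of at least 1 CPM. For Nphs1 these were Fam171a2 (r = 0.999), Hmga2, a chromatin protein of embryonic tissue (0.995), and Padi2, a peptidylarginine deiminase (0.994). Padi2 was at 31.6, 36.9 and 40.8 CPM in mutants and at 71.6, 77.7 and 79.9 CPM in controls, and like Nphs1 it was highest in library 3 of each group. Hmga2 was at 0.952, 0.812 and 1.20 CPM in mutants and at 3.76, 3.87 and 4.71 CPM in controls. For Kirrel2 they were Sdsl, a serine dehydratase-like enzyme gene (0.990), Nr1h4, the bile acid receptor FXR (0.990), and Atp5j2, a subunit gene of the mitochondrial ATP synthase (0.989). Nr1h4 was at 1.62, 1.74 and 0.499 CPM in mutants and at 15.9, 16.6 and 12.2 CPM in controls (log2 fold change -3.53 ± 0.31 SE, edgeR adjusted p = 0.000229). For Kirrel they were Thy1, a surface glycoprotein (0.990), Cacnb1, a calcium channel subunit (0.988), and Uevld (0.985). For Cd2ap they were Phrf1 (0.992), Efcab1 (0.983) and Tgfb3, a secreted growth factor (0.978). The values for Nphs1 and Kirrel2 rest mainly on the distance between the groups, the 6 points share their libraries, and r says nothing of the size of a difference.

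Counts of some members may include or lack reads of other genes. Of the 50-base stretches of the representative transcript, 9.02% for Nphs1 and 15.7% for Cd2ap also occur in transcripts of other genes, and 0% for Kirrel and Kirrel2. How reads with several matches were counted is not given in the sources used here.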

How the data were processed

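RNA of whole pancreas was sequenced from 3 mutant and 3 control samples, grouped by their titles. The authors deposited whole-number counts per gene symbol, 1 file per library, per the file headers. The submitters' processing notes name STAR, HTSeq 0.6.1p1, cutadapt 1.13 and DESeq2 as tools and mm10 as the build, without their roles. Not given in the sources used here are the gene annotation and the strand setting.

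For all 6 libraries together, the glmQLFTest of edgeR 4.0.16 (R 4.3.3) was applied to the counts, with TMM scaling, filterByExpr defaults and no covariate. P-values were adjusted by Benjamini-Hochberg over 13017 genes with a threshold of 0.05. The SE was derived from the log2 fold change and the F statistic. DESeq2 1.42.0, library totals, no filter, a robust dispersion, a replicate block and leaving out each library were the alternatives. Depth per library was 7304727 to 10773223 counts, so that genes near 1 CPM are limited by counting.

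The members, lists and tests were chosen with earlier results of these data known. Always named were the members, Prox1, Ptf1a, Rbpjl, Kirrel3 and Sh3kbp1, then up to 3 called genes per list and direction, the 3 genes most like each member by r (log2 CPM, prior count 2), and the nearest 3 annotated genes on each side of the Kirrel2 and Nphs1 pair. Coordinates come from GENCODE M21 and promoter sequences from the RefSeq table on GRCm38.p6, where all 4 members matched by symbol. Nectin1 to Nectin4 were looked up by their older symbols Pvrl1 to Pvrl4, and Clmp and Trac had no row. One gene of the lists is not reported here.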

Additional observations from a re-analysis of the deposited data

How the results depend on the processing

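The log2 fold change kept its sign in all 11 alternatives for each of the 4 members. When 1 library was left out it lay between -2.70 and -2.28 for Nphs1, -1.31 and -1.07 for Kirrel2, 0.11 and 0.30 for Kirrel, and 0.03 and 0.14 for Cd2ap. With library totals alone it was 0.35 for Kirrel and 0.24 for Cd2ap, where the median of all genes moved by 0.17. Replicate numbers are shared by title only. Same-numbered libraries deviated from their group means with correlations of 0.08, 0.03 and -0.07. These values show no pairing, but with 3 libraries per group they cannot exclude one. With the replicate number as a block, 241 genes were called in place of 268, and the members had -2.44 (Nphs1), -1.22 (Kirrel2), 0.18 (Kirrel) and 0.08 (Cd2ap). Leaving out 1 library gave 125 to 301 called genes, 27 to 99 higher and 98 to 202 lower, with the fewest without control 2 and more than the 268 only without mutant 2. Without mutant 1, mutant 3 or control 3 there were 139, 178 and 140. Library totals alone gave 190 higher and 130 lower, and DESeq2 gave 322 called genes. For 22 named genes outside the 4 members, 202 of 242 alternative values kept direction and call, 29 lost the call, 2 gained it and 9 turned sign. Sign turned for 4 genes that were never called. With library totals alone Kirrel3 had 0.088. When 1 library was left out, Kirrel3 lay between -0.21 and 0.13, Nfkbid between -0.23 and 0.61, Aplp1 between -0.073 and 0.24, and Arhgap33 between -0.054 and 0.31. The call of Fam171a2 was lost in 9 of 11 alternatives and that of Sdsl in 5 of 11. The causes were not tested.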
